A study of Mus musculus with 6 samples.

Results

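Transcripts of 10 dendritic cell genes were followed in lungs of Col6a1-/- mice and of wildtype mice. They were chosen by symbol for the dendritic cell subset they mark, and all 10 were found among the 49568 rows of the deposited table of normalized counts. Flt3 and Zbtb46 are shared by conventional dendritic cells, Xcr1, Clec9a and Batf3 belong to type 1 cells, Cd209a to type 2 cells, Ccr7, Ccl22 and Ccl17 to mature cells, and Siglech to plasmacytoid cells. The Col6a1-/- group held 3 libraries and so did the wildtype group, each library made from whole lung RNA of 2 pooled animals of 1 genotype. All animals were 6 weeks old and of strain C57BL/6 per the labels, and their lung vessels had been perfused with buffer before the right lobes were frozen. The labels give neither the sex of the animals nor how the Col6a1 allele was made.

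Dendritic cells take up antigen in the airway wall and lung tissue, and on maturation carry it to draining lymph nodes, where they present it to T cells. They arise from bone marrow precursors under the cytokine FLT3 ligand. Type 1 cells present antigen from dead cells to CD8 T cells, type 2 cells mainly prime CD4 T cells, and plasmacytoid cells secrete type I interferon in response to viral nucleic acid. In a bulk library of whole lung, fewer cells of a type and less RNA per cell cannot be told apart.

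Library depth was 28055414 to 37904878 reads in genes. Col6a1, which encodes a chain of collagen VI, had 10034, 10616 and 9344 normalized counts in Col6a1-/- replicates 1, 2 and 3, against 19907, 18393 and 22330.5 in wildtype replicates 1, 2 and 3, so that its transcripts were lower but still present in the Col6a1-/- libraries (log2 fold change -1.01, SE 0.10, limma adjusted p = 0.00643). The 6 epithelial identity genes of lung (Sftpc, Sftpb, Ager, Hopx, Scgb1a1 and Foxj1) were detected in every library and summed to normalized counts of 1243300 to 1601450 in Col6a1-/- libraries and 1141180 to 1381480 in wildtype libraries. Y-linked transcripts showed that the pools differed in sex. With Col6a1-/- replicate 2, where Xist was lowest, set to 100%, the Y-linked level was 72.5% and 51.1% in Col6a1-/- replicates 1 and 3, against 0.347%, 3.35% and 51.5% in wildtype replicates 1, 2 and 3. Genotype and sex of the pools are thus partly confounded. Mixed-sex pools were Col6a1-/- replicates 1 and 3 and wildtype replicate 3, and their values are set beside the results for the 10 genes.

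Every one of the 10 genes passed the filter on low values, and the smallest value of any of them in any library was 40.7 normalized counts. By limma on log2(normalized count + 1), none of the 10 was called at an adjusted p of 0.05 over all 16879 tested genes, where 0.0652% of tested genes were called (0.0474% lower and 0.0178% higher). At an unadjusted p under 0.05 there were 3 of 10, namely Clec9a, Ccl22 and Siglech, against 20.3% of all tested genes. The 2 lower ones stand against a background of 10.6%, and the 1 higher one against 9.72%. For Ccr7, Ccl22 and Siglech all Col6a1-/- values lay below all wildtype values, 3 of 10 against 14.2% of all tested genes. For Clec9a all Col6a1-/- values lay above, 1 of 10 against 10.7%. With 10 genes these shares move by 1 gene at a time, and they stand close to the background. The median log2 fold change of the 10 genes was -0.18, with 6 lower and 4 higher estimates, and that of all tested genes was 0.0098. Without Col6a1-/- replicate 2 the median of the 10 genes was -0.092.

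**Figure D1:**
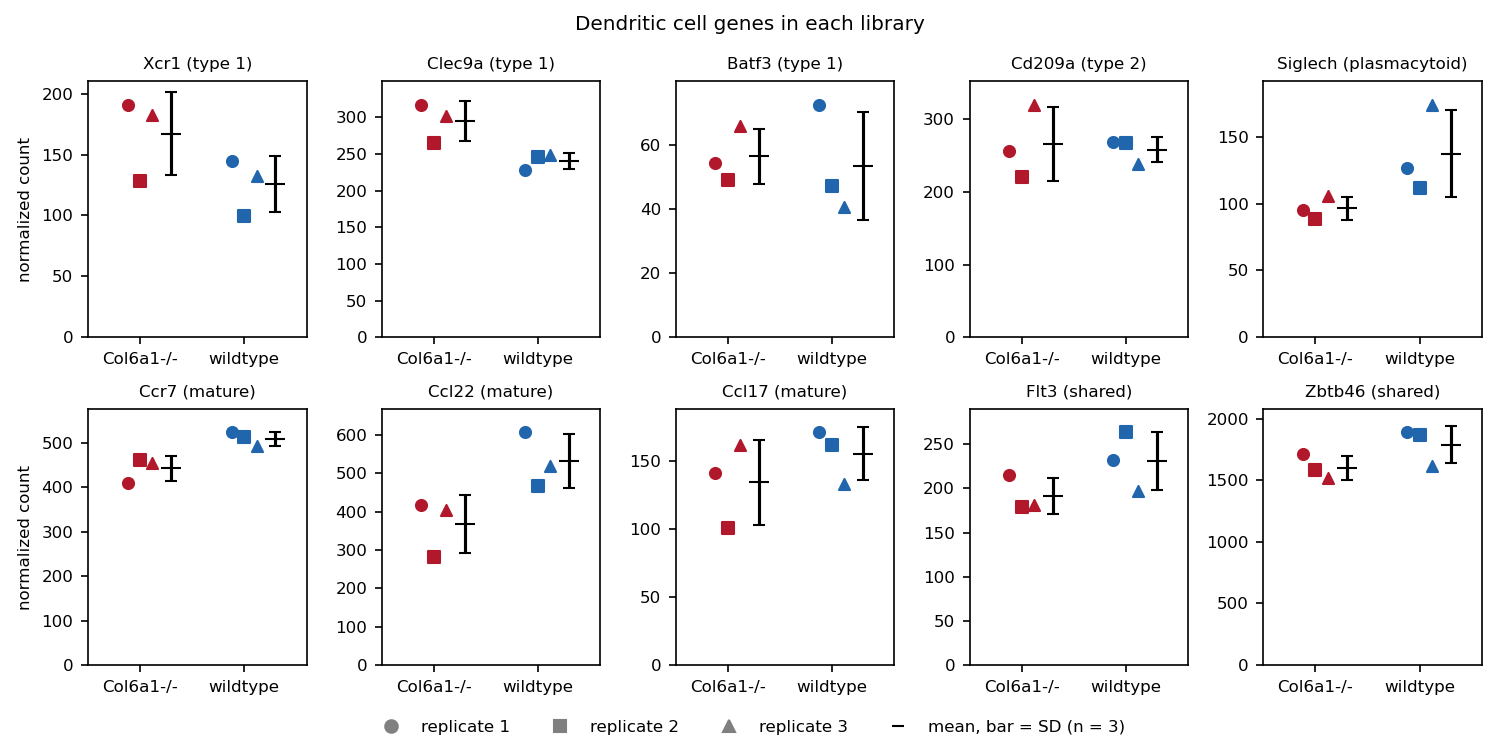
Normalized counts of the 10 dendritic cell genes in each library, Col6a1-/- pools at left and wildtype pools at right in each panel, with the mean and SD of 3 pools beside the points. The genotypes do not overlap for Clec9a (higher in Col6a1-/-) and for Siglech, Ccr7 and Ccl22 (lower in Col6a1-/-).

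Other tools differed on Ccl22 alone. In the authors' deposited table, Ccl22 had a log2 fold change of -0.42 and an adjusted p of 0.0465, past 0.05, where 5.05% of genes with an adjusted p were (3.18% lower and 1.87% higher). The 9 other genes had adjusted p-values of 0.18 to 0.926 in the authors' deposited table. DESeq2 on the recovered reads also called Ccl22 and none of the other 9 (5.06% of its genes were called), and edgeR's quasi-likelihood test on the same reads called none (0.077%). All of these use the same 6 libraries and are no independent evidence.

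The genes differed in level. Per kilobase of annotated exon, the chemokine gene Ccl17 had the highest mean, 262 ± 60.7 normalized counts per kilobase in Col6a1-/- lungs and 303 ± 38.4 in wildtype lungs (SD, n = 3 pools each). Ccr7 came next at 224 ± 14.3 in Col6a1-/- and 258 ± 7.85 in wildtype lungs per kilobase. The type 1 receptor gene Clec9a stood in the middle, at 89.4 ± 8.19 in Col6a1-/- and 73 ± 3.42 in wildtype lungs, apart from both its neighbours in either genotype. Below it lay Xcr1, Batf3, Flt3 and Siglech, whose library ranges per kilobase overlapped from each gene to the next in both genotypes. These 4 genes spanned means of 28.6 to 37.6 per kilobase in Col6a1-/- lungs and 28.2 to 40.7 in wildtype lungs. Xcr1 had the highest mean of the 4 in Col6a1-/- lungs and the lowest in wildtype lungs, and Siglech the reverse. Ccl22 had a lower mean than Zbtb46 and Cd209a in Col6a1-/- lungs, and a higher mean than both in wildtype lungs. Its range overlapped those of Cd209a and Zbtb46 in Col6a1-/- lungs and that of Zbtb46 in wildtype lungs.

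**Figure D2:**
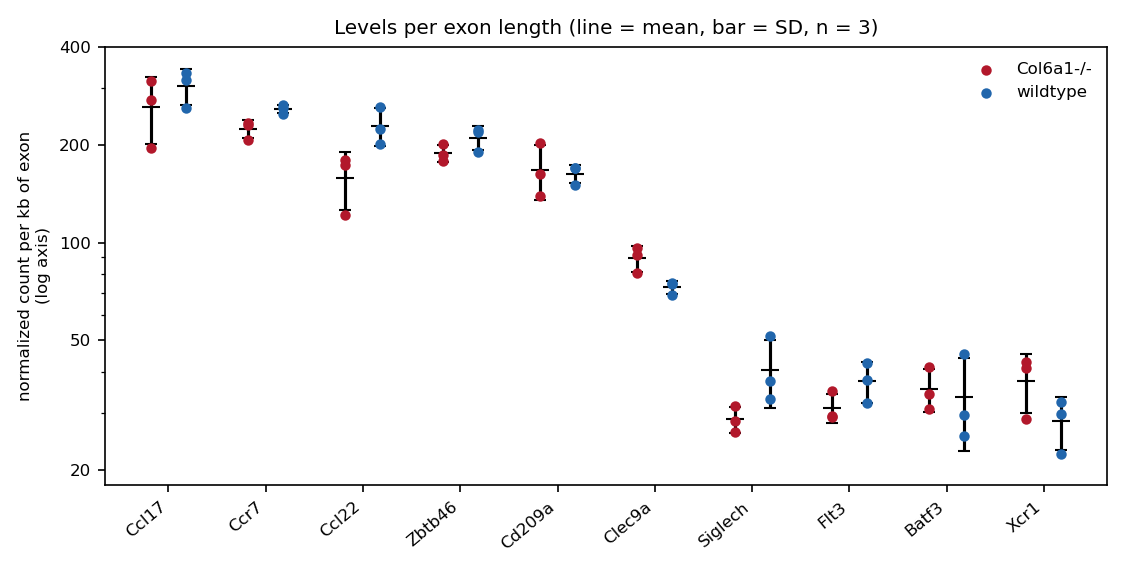
Normalized count per kilobase of annotated exon (log axis) for the 10 genes, ordered by the wildtype mean, with 1 point per library and the mean and SD of 3 pools, Col6a1-/- left of wildtype for each gene. Means per kilobase run from 28.6 (Siglech) to 262 (Ccl17) in Col6a1-/- lungs and from 28.2 (Xcr1) to 303 (Ccl17) in wildtype lungs.

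Both shared genes had lower estimates in Col6a1-/- lungs, and neither passed. Flt3 (ENSMUSG00000042817.15, chromosome 5, 147330741 to 147400489, minus strand, GRCm38 here and for all positions that follow) encodes the receptor of FLT3 ligand and is also made by early blood progenitors. Flt3 had 215, 179 and 181 normalized counts in Col6a1-/- replicates 1, 2 and 3, against 233, 263 and 198 in wildtype replicates 1, 2 and 3. The genotypes overlapped, since Col6a1-/- replicate 1 lay above wildtype replicate 3 (log2 fold change -0.26, SE 0.15, limma adjusted p = 0.342). Without wildtype replicate 2 the Flt3 estimate was -0.16. Zbtb46 (ENSMUSG00000027583.13, chromosome 2, 181387762 to 181459426, minus strand) encodes a zinc finger transcription factor of conventional dendritic cells that endothelial cells make too. Zbtb46 had 1709, 1580.0 and 1513 normalized counts in Col6a1-/- replicates 1, 2 and 3, against 1887, 1867 and 1613 in wildtype replicates 1, 2 and 3. Wildtype replicate 3 lay inside the Col6a1-/- range (log2 fold change -0.16, SE 0.10, limma adjusted p = 0.373). Blood endothelial markers (Cldn5, Cdh5, Pecam1, Tie1, Tek, Kdr, Egfl7 and Emcn) summed to normalized counts of 132303 to 137331 in Col6a1-/- libraries and 146457 to 159602 in wildtype libraries, with none of the 8 at 0 and without overlap. Cdh5 and Pecam1 had the highest means of these markers, 38206 and 31605 over all libraries. Egfl7 and Emcn had higher estimates in Col6a1-/- lungs, and the other 6 had lower ones. The part of endothelial cells in the Zbtb46 values was not tested. In the mixed-sex pools, wildtype replicate 3 lay between both Col6a1-/- libraries for Flt3 and for Zbtb46, and the estimates there were near 0, -0.0017 for Flt3 and -0.0044 for Zbtb46. With the male share of the pools as a covariate the estimates were -0.041 for Flt3 and -0.040 for Zbtb46. With the trend on gene length and GC content removed, that of Zbtb46 was -0.023.

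The type 1 genes all had higher estimates in Col6a1-/- lungs, and none passed the limma threshold. Clec9a (ENSMUSG00000046080.17, chromosome 6, 129408862 to 129424763, plus strand) encodes DNGR-1, a C-type lectin that binds exposed actin filaments of dead cells. The Clec9a level was 317, 265 and 302 normalized counts in Col6a1-/- replicates 1, 2 and 3, against 227, 246 and 248 in wildtype replicates 1, 2 and 3. All 3 Col6a1-/- libraries lay above all 3 wildtype libraries, with Col6a1-/- replicate 2 the closest to wildtype. Clec9a averaged 294 ± 27 in Col6a1-/- lungs and 240.4 ± 11.3 in wildtype lungs (SD, n = 3 pools each), 1.23-fold the wildtype mean (log2 fold change 0.29, SE 0.12, limma unadjusted p = 0.041, adjusted p = 0.227). Clec9a shares 184 exon bases with its neighbour Clec1b (ENSMUSG00000030159.15, chromosome 6, 129397297 to 129409335), which lies on the same strand and encodes the platelet receptor CLEC-2. Clec1b had 149, 89.7 and 181 normalized counts in Col6a1-/- replicates 1, 2 and 3, against 81, 79 and 73.6 in wildtype replicates 1, 2 and 3, also without overlap (log2 fold change 0.78, SE 0.24, limma adjusted p = 0.131). No source used here states how reads in the shared exon bases were counted, and the part of Clec1b in the Clec9a values was not tested.

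Xcr1 (ENSMUSG00000060509.4, chromosome 9, 123852315 to 123862029, minus strand) encodes the receptor of the chemokine XCL1, by which type 1 cells meet T and NK cells. Normalized counts of Xcr1 were 191, 128 and 183 in Col6a1-/- replicates 1, 2 and 3, against 144, 99.9 and 133 in wildtype replicates 1, 2 and 3. Col6a1-/- replicates 1 and 3 lay above every wildtype library, and Col6a1-/- replicate 2 lay inside the wildtype range. Xcr1 stood at 1.33-fold the wildtype mean (log2 fold change 0.41, SE 0.20, limma adjusted p = 0.282), and without wildtype replicate 2 the estimate was 0.25. Batf3 (ENSMUSG00000026630.9, chromosome 1, 191097847 to 191108945, plus strand), the leucine zipper factor on which type 1 cells depend in mice, is also made by activated T cells. It had 54.6, 49.2 and 66 normalized counts in Col6a1-/- replicates 1, 2 and 3, against 72.7, 47.2 and 40.7 in wildtype replicates 1, 2 and 3. Wildtype replicate 1 held the highest and wildtype replicate 3 the lowest value of Batf3 among the 6 libraries (log2 fold change 0.11, SE 0.25, limma adjusted p = 0.829). Leaving out the first of these libraries gave a Batf3 estimate of 0.35, and leaving out the other gave -0.060. In the mixed-sex pools all 3 type 1 genes were higher in both Col6a1-/- libraries than in wildtype replicate 3. With the male share as a covariate the log2 fold changes were 0.34 for Clec9a, 0.59 for Xcr1 and 0.67 for Batf3, with adjusted p of 0.697, 0.675 and 0.666.

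The 250 bases upstream of the RefSeq starts are shown for Clec9a and Xcr1, the type 1 genes with the largest estimates, and for the chemokine genes Ccl22 and Ccl17. They lie on build GRCm38.p6 at chr6:129408612-129408861 (plus strand), chr9:123862030-123862279 (minus strand), chr8:94745434-94745683 (plus strand) and chr8:94810203-94810452 (plus strand), and are given 5′ to 3′ on the strand of the gene. The RefSeq start of Ccl22 lies inside the span that GENCODE gives the gene. The Clec9a window lies inside the GENCODE span of its neighbour Clec1b, on the same strand. Capitals mark matches to the motifs searched.
Clec9a: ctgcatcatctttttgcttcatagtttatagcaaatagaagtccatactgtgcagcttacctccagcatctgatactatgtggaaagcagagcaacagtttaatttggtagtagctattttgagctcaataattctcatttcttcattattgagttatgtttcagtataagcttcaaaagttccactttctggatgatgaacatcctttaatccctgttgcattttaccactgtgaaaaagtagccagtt
Xcr1: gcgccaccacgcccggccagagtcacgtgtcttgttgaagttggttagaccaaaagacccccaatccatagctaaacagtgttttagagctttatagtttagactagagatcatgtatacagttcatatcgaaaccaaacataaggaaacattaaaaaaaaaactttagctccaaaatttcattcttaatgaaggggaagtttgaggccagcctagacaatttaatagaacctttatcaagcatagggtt
Ccl22: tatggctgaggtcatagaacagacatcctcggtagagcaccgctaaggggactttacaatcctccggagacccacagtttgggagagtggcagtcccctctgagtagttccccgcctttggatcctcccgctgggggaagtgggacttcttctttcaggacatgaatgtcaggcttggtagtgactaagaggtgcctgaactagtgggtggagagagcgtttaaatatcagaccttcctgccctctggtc
Ccl17: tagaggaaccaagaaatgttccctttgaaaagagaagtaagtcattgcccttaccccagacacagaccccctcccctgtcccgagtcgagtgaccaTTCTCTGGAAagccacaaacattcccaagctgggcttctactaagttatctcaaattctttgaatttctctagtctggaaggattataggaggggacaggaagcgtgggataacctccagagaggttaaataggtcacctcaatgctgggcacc
Both strands were searched in these windows for the AP-1 motif TGANTCA, the ETS-IRF motif (GGAA and GAAA with 2 bases of any kind between them), the STAT6 motif (TTC and GAA with 4 bases of any kind between them) and the NF-kB consensus. RefSeq held such a window for 9 of the 10 genes, Ccr7 being the other. Ccl17 had 1 match, the STAT6 motif at 154 to 145 bases before its start, and Clec9a, Xcr1 and Ccl22 had none. Of the 5 windows not printed, only that of Zbtb46 had a match, 1 to AP-1 at 61 to 55 bases before its RefSeq start. That window (chr2:181424389-181424638, minus strand) lies inside the span that GENCODE gives Zbtb46, and not upstream of it. The Batf3 window likewise lies inside the GENCODE span of Batf3, and the Siglech window ends just inside that of Siglech. Neither the Ccl17 match nor the Zbtb46 match overlapped another motif. Among 32851 promoter windows of the same length, AP-1 matched in 6.75%, ETS-IRF in 2.3%, STAT6 in 5.85% and NF-kB in 7.25%. A match describes letters and is not a measured binding site.

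The type 2 gene did not differ beyond the spread between pools. Cd209a (ENSMUSG00000031494.7, chromosome 8, 3743397 to 3748984, minus strand) encodes a mouse relative of the lectin DC-SIGN and also marks dendritic cells derived from monocytes. Cd209a had 257, 219.8 and 319.9 normalized counts in Col6a1-/- replicates 1, 2 and 3, against 268, 268 and 238 in wildtype replicates 1, 2 and 3. The wildtype libraries all lay within the Col6a1-/- range, whose lowest value was in replicate 2 and highest in replicate 3 (log2 fold change 0.026, SE 0.15, limma adjusted p = 0.942). The Cd209 family has 7 genes of similar sequence in the table, and no source used here states how reads matching several of them were counted, so their values are uncertain. Cd209c had 50.6, 50.3 and 34 normalized counts in Col6a1-/- replicates 1, 2 and 3, against 54, 79 and 59.1 in wildtype replicates 1, 2 and 3 (log2 fold change -0.50, SE 0.24, limma adjusted p = 0.267). Cd209f had 40.9, 62.3 and 70 normalized counts in Col6a1-/- replicates 1, 2 and 3, against 63.3, 38.4 and 34.9 in wildtype replicates 1, 2 and 3 (log2 fold change 0.35, SE 0.29, limma adjusted p = 0.509). In the mixed-sex pools both Col6a1-/- values of Cd209a lay above wildtype replicate 3 (estimate 0.27). With the male share as a covariate its estimate was 0.39 (limma adjusted p = 0.666). Of the 6 family members tested, 5 had higher estimates and 1 lower, with a median of 0.077 and none called.

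The 3 genes of mature dendritic cells had lower estimates in Col6a1-/- lungs, and Ccl22 had the smallest p-value of the 10 genes. Ccl22 (ENSMUSG00000031779.3, chromosome 8, 94745590 to 94751699, plus strand) encodes a chemokine that attracts regulatory and type 2 helper T cells through the receptor CCR4, and macrophages can make it too. The Ccl22 level was 418, 282 and 404 normalized counts in Col6a1-/- replicates 1, 2 and 3, against 606, 467 and 519.9 in wildtype replicates 1, 2 and 3. No Col6a1-/- library reached the lowest wildtype library, and Col6a1-/- replicate 2 was the lowest of all. Ccl22 averaged 368 ± 74.8 in Col6a1-/- lungs and 531 ± 70.6 in wildtype lungs (SD, n = 3 pools each), 69.3% of the wildtype mean (log2 fold change -0.54, SE 0.16, limma unadjusted p = 0.00759, adjusted p = 0.13). It ranked 985 of 16879 genes by p. In the mixed-sex pools Ccl22 and Ccr7 were lower in both Col6a1-/- libraries than in wildtype replicate 3, with an estimate of -0.34 for Ccl22. Without Col6a1-/- replicate 2 the Ccl22 estimate was -0.36, and with the male share as a covariate it was -0.25 (limma adjusted p = 0.806).

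Ccl17 (ENSMUSG00000031780.2, chromosome 8, 94810453 to 94812036, plus strand) encodes the other CCR4 ligand of mature dendritic cells and lies close to Ccl22 on chromosome 8. Normalized counts of Ccl17 were 141, 101 and 162 in Col6a1-/- replicates 1, 2 and 3, against 171, 162 and 134 in wildtype replicates 1, 2 and 3. The genotypes overlapped, with Col6a1-/- replicate 2 lowest (log2 fold change -0.23, SE 0.20, limma adjusted p = 0.526). The estimate was -0.035 without that library and -0.38 without Col6a1-/- replicate 3. Its estimate turned to 0.32 with the male share as a covariate, and both Col6a1-/- libraries of mixed sex lay above wildtype replicate 3. Ccr7 (ENSMUSG00000037944.8, chromosome 11, 99144196 to 99155077, minus strand) encodes the receptor that guides mature dendritic cells, and also naive T cells and B cells, to lymph nodes. Ccr7 had 410.1, 463 and 455 normalized counts in Col6a1-/- replicates 1, 2 and 3, against 523, 513 and 493 in wildtype replicates 1, 2 and 3. The Col6a1-/- libraries all lay below the wildtype libraries, and the gap between the nearest libraries of the genotypes was about as wide as the wildtype range. Ccr7 averaged 442 ± 28.3 in Col6a1-/- lungs and 509.6 ± 15.5 in wildtype lungs (SD, n = 3 pools each), 86.8% of the wildtype mean (log2 fold change -0.20, SE 0.10, limma adjusted p = 0.289). B cell markers (9 genes from Ms4a1 to Cr2) summed to normalized counts of 4305 to 5452 in Col6a1-/- libraries and 6296 to 7553 in wildtype libraries, and T cell markers (10 genes from Cd3e to Lef1) to 3218 to 3727 in Col6a1-/- libraries and 3491 to 4035 in wildtype libraries. None of these B and T cell markers was at 0 in any library, the B cell sums did not overlap and the T cell sums did, and their part in the Ccr7 values was not tested.

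The plasmacytoid gene was lower in every Col6a1-/- library. Siglech (ENSMUSG00000051504.18, chromosome 7, 55768178 to 55778925, plus strand) encodes a sialic acid binding receptor of mouse plasmacytoid cells that some macrophages also make. The Siglech level was 95.5, 88.6 and 106 normalized counts in Col6a1-/- replicates 1, 2 and 3, against 127, 112 and 174 in wildtype replicates 1, 2 and 3. The Col6a1-/- libraries lay close together, and the wildtype spread was set by replicate 3, the highest of the 6. Siglech averaged 96.7 ± 8.76 in Col6a1-/- lungs and 138 ± 32.6 in wildtype lungs (SD, n = 3 pools each), 70.2% of the wildtype mean (log2 fold change -0.48, SE 0.19, limma unadjusted p = 0.0285, adjusted p = 0.195). Without wildtype replicate 3 the estimate was -0.30. In the mixed-sex pools alone, which include that library as the only wildtype one, it was -0.79. Alveolar macrophage markers (11 genes from Marco to Fabp1) summed to normalized counts of 20669.8 to 23804 in Col6a1-/- libraries and 24439 to 26641 in wildtype libraries, without overlap and with none at 0. Chil3 and Car4 had the highest means of these markers, 10357 and 5973 over all libraries, and each alone overlapped between genotypes. The part of alveolar macrophages in the Siglech values was not tested.

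**Figure D3:**
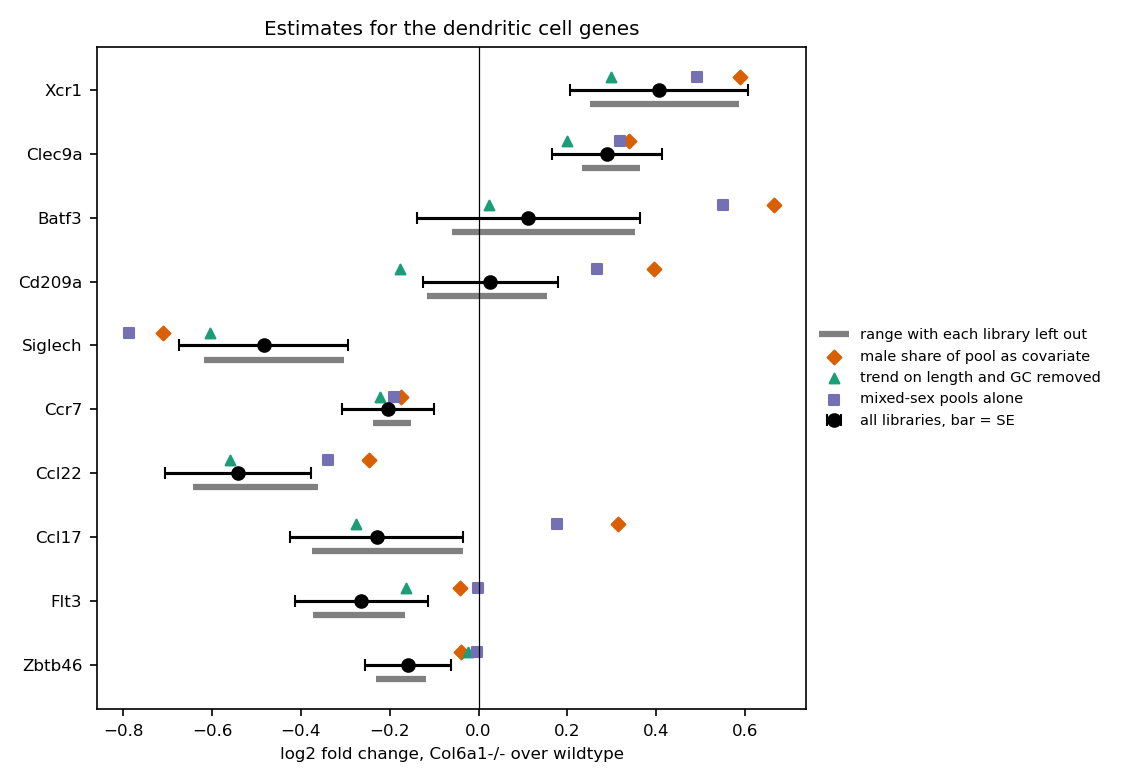
Log2 fold changes of the 10 genes, Col6a1-/- over wildtype, by limma on all 6 libraries with SE bars, beside the range over the 6 fits that leave out a library and 3 further settings. The signs for Xcr1, Clec9a, Siglech, Ccr7 and Ccl22 are the same under every setting drawn, while Ccl17, Cd209a and Batf3 cross 0.

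Single libraries held many of the extremes. Col6a1-/- replicate 2, the library with the highest Y-linked level, was the lowest of its genotype for 8 of the 10 genes. Wildtype replicate 3, the mixed-sex wildtype pool, was the lowest of its genotype for 6, and wildtype replicate 1 the highest of its genotype for 7. Ratios of one gene to another within a library do not depend on the scaling of libraries. The ratio of Clec9a to Flt3 was 1.47, 1.48 and 1.67 in Col6a1-/- replicates 1, 2 and 3, against 0.978, 0.933 and 1.25 in wildtype replicates 1, 2 and 3. Every Col6a1-/- value of this ratio lay above every wildtype value. For Xcr1 over Flt3 it was 0.888, 0.713 and 1.01 in Col6a1-/- replicates 1, 2 and 3, against 0.621, 0.379 and 0.672 in wildtype replicates 1, 2 and 3, again without overlap. The ratio of Clec9a to the type 2 gene Cd209a overlapped, at 1.23, 1.2 and 0.944 in Col6a1-/- replicates 1, 2 and 3, against 0.849, 0.918 and 1.04 in wildtype replicates 1, 2 and 3. Ccl22 over Ccr7 overlapped too, averaging 0.839 ± 0.209 in Col6a1-/- lungs and 1.04 ± 0.125 in wildtype lungs (SD, n = 3 pools each). The ratios were chosen after the values were seen and are given without a test.

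**Figure D4:**
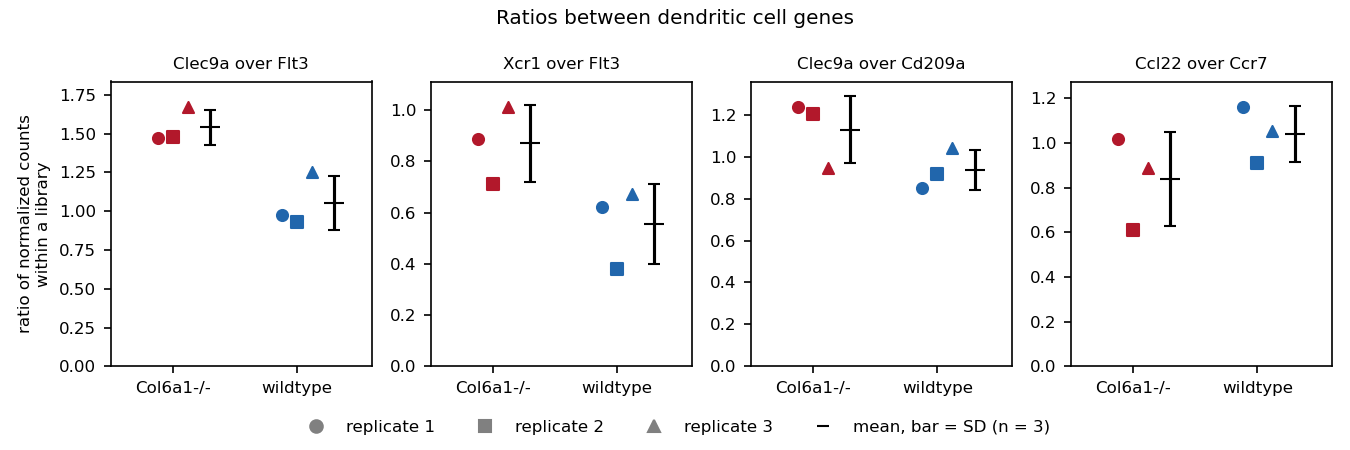
Ratios of normalized counts within each library, Col6a1-/- pools left of wildtype pools, with the mean and SD of 3 pools. Clec9a over Flt3 and Xcr1 over Flt3 are higher in all Col6a1-/- libraries than in all wildtype libraries, and the ratios to Cd209a and to Ccr7 overlap.

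In each subset further genes had estimates in both directions. Most mature, plasmacytoid and shared genes had lower estimates, but these lists include their members among the 10. Most type 2, MHC class II, alveolar macrophage and T cell genes had lower estimates as well. Of 13 type 1 genes tested, Xcr1, Clec9a and Batf3 among them, 6 had higher and 7 lower estimates, with a median of -0.062 and none called. Wdfy4, needed for cross-presentation by type 1 cells in mice, had 1635, 1503 and 1498 normalized counts in Col6a1-/- replicates 1, 2 and 3, against 2608, 2279 and 1954 in wildtype replicates 1, 2 and 3. It did not overlap, in the direction opposite to Clec9a (log2 fold change -0.55, SE 0.11, limma adjusted p = 0.0815). Snx22, a sorting nexin, stood at 78.2% of wildtype, also without overlap (log2 fold change -0.37, SE 0.14, limma adjusted p = 0.178). The summed type 1 list overlapped, at 16524 to 17959 in Col6a1-/- libraries and 17649 to 18606 in wildtype libraries. Several of its genes, such as Cadm1, are made by other lung cells as well.

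Of 11 tested type 2 genes, 4 had higher and 7 lower estimates, with a median of -0.13 and none called. Klf4, Notch2, Cbfa2t3 and Sirpa averaged 6133, 4827, 4610 and 4298 normalized counts over all libraries, against 262 for Cd209a. Which cells these transcripts came from was not tested. The lectin gene Mgl2 had 644, 578 and 726 normalized counts in Col6a1-/- replicates 1, 2 and 3, against 1010.5, 948 and 761 in wildtype replicates 1, 2 and 3, without overlap (log2 fold change -0.48, SE 0.13, limma adjusted p = 0.113). Cbfa2t3, a transcriptional corepressor, stood at 79.1% of wildtype (log2 fold change -0.33, SE 0.11, limma adjusted p = 0.145). Of the 16 mature genes, 5 had higher and 11 lower estimates, with a median of -0.13. Fscn1, the actin bundling protein of mature cells, stood at 83.5% of wildtype (log2 fold change -0.26, SE 0.12, limma adjusted p = 0.255), while Nudt17 stood at 1.33-fold (log2 fold change 0.40, SE 0.20, limma adjusted p = 0.278). Both overlapped between genotypes, and the mature list held none called.

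Of the 14 plasmacytoid genes, 4 had higher and 10 lower estimates, with a median of -0.17 and none called. Spib, a transcription factor of plasmacytoid cells and B cells, had 445, 410.0 and 459 normalized counts in Col6a1-/- replicates 1, 2 and 3, against 1101, 856 and 684 in wildtype replicates 1, 2 and 3. It stood at 49.8% of wildtype, without overlap (log2 fold change -0.98, SE 0.16, limma adjusted p = 0.0681). Tlr9, the receptor of unmethylated CpG DNA in the same cell types, stood at 53.2% of wildtype (log2 fold change -0.89, SE 0.17, limma adjusted p = 0.0781). B cell markers, whose sums did not overlap either, included Pax5 at 55.9% and Blk at 60.7% of wildtype, with limma adjusted p of 0.0681 and 0.0812. All 9 B cell markers had lower estimates, with a median of -0.44 and none called. The part of B cells in the Spib and Tlr9 values was not tested.

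Among 9 shared genes, 2 had higher and 7 lower estimates, with a median of -0.26 and none called. Itgax, which encodes the integrin CD11c of dendritic cells and alveolar macrophages, had 1369.8, 1345 and 1359 normalized counts in Col6a1-/- replicates 1, 2 and 3, against 1887, 1949 and 1730.1 in wildtype replicates 1, 2 and 3. It was lower in every Col6a1-/- library (log2 fold change -0.45, SE 0.086, limma adjusted p = 0.0786). Id2, a transcriptional regulator of dendritic cells and innate lymphocytes, had 2377, 2032 and 2536 normalized counts in Col6a1-/- replicates 1, 2 and 3, against 1769, 1759.7 and 1709.8 in wildtype replicates 1, 2 and 3. Id2 was higher in every Col6a1-/- library (log2 fold change 0.40, SE 0.10, limma adjusted p = 0.0967). All 9 MHC class II genes had lower estimates, with a median of -0.14 and none called. Ciita, their transactivator, stood at 66.4% and Cd74, the invariant chain, at 85.2% of wildtype, with limma adjusted p of 0.0833 and 0.26.

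**Figure D5:**
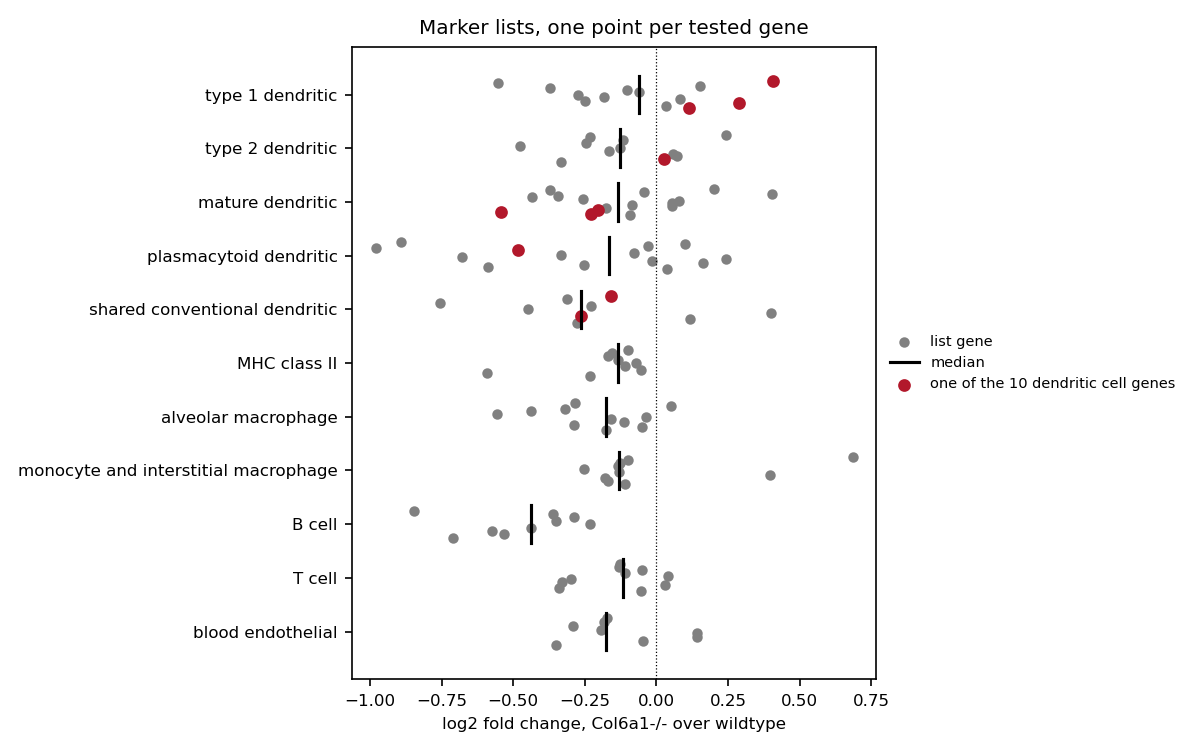
Log2 fold changes, Col6a1-/- over wildtype, of the tested genes in 11 marker lists, with 1 point per gene, the 10 dendritic cell genes in red and the median of each list as a line. Xcr1, Clec9a and Batf3 lie to the right of the type 1 median of -0.062, and all 9 B cell markers lie below 0.

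Ligands and receptors that act on these cells were tested as a further list, in which 3 of 10 tested genes had higher and 7 lower estimates, with a median of -0.071 and none called. Flt3l, the ligand of FLT3, had 2011, 2519 and 1921 normalized counts in Col6a1-/- replicates 1, 2 and 3, against 1907, 1834 and 1683 in wildtype replicates 1, 2 and 3. It was higher in every Col6a1-/- library (log2 fold change 0.24, SE 0.11, limma adjusted p = 0.259), while the estimate of its receptor gene Flt3 was lower. Xcl1, the ligand of XCR1, had 13.6, 6.56 and 19 normalized counts in Col6a1-/- replicates 1, 2 and 3, against 19.7, 12.1 and 9.68 in wildtype replicates 1, 2 and 3 (log2 fold change -0.13, SE 0.44, limma adjusted p = 0.898). Ccl19, a ligand of CCR7, had 8.83, 16.4 and 23 normalized counts in Col6a1-/- replicates 1, 2 and 3, against 20.8, 12.1 and 13.6 in wildtype replicates 1, 2 and 3 (log2 fold change -0.0047, SE 0.40, limma adjusted p = 0.996). Ccl21a, another CCR7 ligand gene, was listed at 0 in every library. Whether that 0 comes from absent RNA or from how reads were counted was not tested. Ccr4, the receptor of CCL17 and CCL22, had 24.9, 8.75 and 21 normalized counts in Col6a1-/- replicates 1, 2 and 3, against 26, 26.3 and 19.4 in wildtype replicates 1, 2 and 3 (log2 fold change -0.48, SE 0.39, limma adjusted p = 0.503). At counts this low a difference in Xcl1, Ccl19 or Ccr4 was not detectable unless large. Csf2rb, the common beta chain of the GM-CSF receptor, and Il4ra, the IL-4 receptor chain, stood at 71.6% and 72.9% of wildtype, both without overlap, with limma adjusted p of 0.0852 and 0.0893.

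Markers of other cells held no called gene. Monocyte and interstitial macrophage markers summed to normalized counts of 12656 to 12844 in Col6a1-/- libraries and 11665 to 12945 in wildtype libraries, with 2 of 10 estimates higher and a median of -0.13. The smallest p-values were those of Nr4a1 at 1.57-fold and Ccr2 at 1.34-fold (limma adjusted p 0.115 and 0.214). Alveolar macrophage markers had 10 of 11 estimates lower, with a median of -0.18, and the smallest p-values were those of Krt79 at 68.6% and Plet1 at 80.2% of wildtype (limma adjusted p 0.0942 and 0.104). T cell markers had 8 of 10 lower, with a median of -0.12, and the smallest p-values were those of Cd4 at 79.5% and Cd3e at 78.6% (limma adjusted p 0.162 and 0.234). None of these reached the threshold. NK cell markers summed to normalized counts of 816 to 1447 in Col6a1-/- libraries and 988 to 1169 in wildtype libraries, with 3 of 7 estimates higher, a median of -0.090, and Klra8 at 2.46-fold and Prf1 at 78% of wildtype (limma adjusted p 0.095 and 0.346). Neutrophil markers summed to normalized counts of 1763 to 4222 in Col6a1-/- libraries and 2001 to 2772 in wildtype libraries, with 5 of 6 higher and a median of 0.16. The alarmin genes S100a8 and S100a9 stood at 2.17-fold and 1.54-fold with overlap (limma adjusted p 0.154 and 0.447). The B cell, T cell, NK cell and neutrophil sums were all lowest of the 6 libraries in Col6a1-/- replicate 2, where 8 of the 10 dendritic cell genes were lowest within their genotype. Blood endothelial markers had 6 of 8 estimates lower and a median of -0.18, with Cdh5 at 78.6% and Pecam1 at 81.5% of wildtype (limma adjusted p 0.132 and 0.15). Lymphatic endothelial markers summed to normalized counts of 12872 to 14756 in Col6a1-/- libraries and 16469 to 17716 in wildtype libraries, without overlap and with 5 of 6 lower and a median of -0.19. They included Lyve1 at 63.8% and Flt4 at 74% (limma adjusted p 0.0786 and 0.0967), and Lyve1 alone averaged 8948 in wildtype. Prox1, Mmrn1 and Reln overlapped between genotypes, and Pdpn was higher in every Col6a1-/- library. Of the epithelial genes 3 had higher and 3 lower estimates, with a median of 0.033, Scgb1a1 at 1.31-fold and Hopx at 1.12-fold (limma adjusted p 0.28 and 0.357). The part of these cells in the dendritic cell values was not tested.

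Genes of like pattern were ranked by Pearson's r on the log2 scale over the 6 libraries, among 12999 tested genes with a mean of at least 100 normalized counts. The closest 2 genes were Cldn23 and Scrn3 for Xcr1 (r of 0.977 and 0.969), Tatdn1 and Gpm6a for Clec9a (0.992 and 0.985), Cyb5b and Rassf3 for Ccl22 (0.994 and 0.994), and Ubfd1 and Dis3 for Siglech (0.997 and 0.979). For Ccr7 they were Igfbp4 and Klhl6 (0.989 and 0.987), for Ccl17 Plbd1 and Hdc (0.996 and 0.988), and for Flt3 Fchsd1 and Cfap99 (0.991 and 0.988). For Zbtb46, Dnah11 was among the closest (0.997). Cd209a was closest to Krt23 and Scx (0.996 and 0.987). Batf3, compared with 13000 genes since its own mean is below 100, was closest to D430040D24Rik and 1700007K13Rik (0.991 and 0.972). No member was among the closest of another. Between 29 and 312 genes exceeded an r of 0.9 with each member, so that with 6 points from shared libraries a high r is common and is a description only.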

How the data were processed

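RNA of whole perfused lung was measured in 6 libraries. Per the submitters' processing notes, which give no roles, the build was GRCm38.p5 and the tools were DESeq2 1.16.1, R 3.4.1, featureCounts, Subread 1.5.0p3, STAR 2.5.2b and Trimmomatic 0.36. In the deposited table the authors' signal is a count normalized by a size factor (0.911 to 1.25). Whole reads were recovered from it and used only for depth and for the count models. In each library 100% of values lay within 1e-06 of a whole multiple of 1 step. This includes Col6a1-/- replicate 3, whose factor is near 1 (1.00034). The column of wildtype replicate 2 bears the extra word New, unexplained. The authors' deposited comparison gave log2 fold changes, p-values, and a mean and a statistic per gene, each treated as a score.

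Genes reaching 10 normalized counts in 3 or more libraries were tested (16879 of 49568 rows) with limma-trend 3.58.1 in R 4.3.3, two-sided, on log2(normalized count + 1), Col6a1-/- over wildtype, with Benjamini-Hochberg adjustment across them and calls at 0.05. This scale understates changes of low genes. Alternatives were edgeR 4.0.16, DESeq2 1.42.0 and the settings in the closing section, and the mixed-sex pools alone were added after seeing the data. Length and GC were known for 97.4% of tested genes. P-values measure the spread between pools. Scripts were tested on simulated data. The 10 genes and the marker lists were chosen with earlier results of these data known. Besides the 10 genes, the text names from each list the called genes and the 2 with the smallest p at a mean of at least 50, plus 5 ligand and receptor genes, Col6a1, and the 2 genes most like each member. A B cell marker, left out of its list, and a gene of like pattern are not reported here. Clec1b, Cadm1, the ratios and list genes named for their level, overlap or direction were chosen afterwards. Positions and exon lengths come from GENCODE M21 (GRCm38), and promoter windows from RefSeq (GRCm38.p6). Figures used Python 3.11.15 and matplotlib 3.10.9.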

Additional observations from a re-analysis of the deposited data

How the results depend on the processing

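Under 19 alternatives the estimates of Flt3, Zbtb46, Xcr1, Clec9a, Ccr7, Ccl22 and Siglech kept their sign, but Flt3 and Zbtb46 came close to 0 in the mixed-sex pools (-0.0017 and -0.0044), Zbtb46 also with the trend on length and GC removed (-0.023). Flt3 was -0.16 with that trend removed and -0.16 without wildtype replicate 2, Xcr1 0.25 without wildtype replicate 2, and Siglech -0.30 with quality weights and -0.30 without wildtype replicate 3. Cd209a was 0.39 with the male share as a covariate and 0.27 in the mixed-sex pools, against 0.026 in all 6 libraries. Cd209a turned negative with median centring (-0.012), quantile normalization (-0.031) and the trend on length and GC removed (-0.18), and ran from -0.12 to 0.15 with 1 library left out, negative without Col6a1-/- replicate 3 (-0.12) and without wildtype replicate 3 (-0.030). Batf3 ran from -0.060 to 0.35 with 1 library left out, negative without the same libraries (-0.0021 and -0.060), and was 0.67 with the male share as a covariate, 0.55 in the mixed-sex pools and 0.025 with the length and GC trend removed. With 1 library left out Ccl17 ran from -0.38 (without Col6a1-/- replicate 3) to -0.035 (without Col6a1-/- replicate 2). Ccl17 turned positive with the male share as a covariate (0.32) and in the mixed-sex pools (0.18).

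Only Ccl22 of the 10 genes was called with library quality weights (limma adjusted p = 0.0484), and only Ccl22 by DESeq2 (adjusted p = 0.0464), both on all 6 libraries. Library quality weights called 3225 of all 16879 tested genes, and DESeq2 called 742 of 14672 (5.06%). In the mixed-sex pools the Siglech estimate was -0.79, from 2 Col6a1-/- libraries against 1 wildtype library, which held the highest Siglech value of the 6. That comparison was chosen after seeing the data, and its lone wildtype library shows no spread of its own. The median of the 10 was 0.14 with the male share as a covariate and 0.088 in the mixed-sex pools, against -0.18 in all 6 libraries and -0.092 without Col6a1-/- replicate 2. Over all genes limma called 11, and the calls were 93 without a filter, 7 with a filter at 50, 26 with median centring, 3225 with quality weights, 742 by DESeq2, 7 with the replicate block, 81 with the length and GC trend removed and 343 in the mixed-sex pools. With the male share as a covariate limma called 0 (1306 at an unadjusted p under 0.05). With 1 library left out the calls ran from 0 to 1383: 47 without Col6a1-/- replicate 2, 0 without Col6a1-/- replicate 3 (1979 at an unadjusted p under 0.05), 0 without wildtype replicate 1 (1902), 2 without wildtype replicate 2 and 1383 without wildtype replicate 3. The cause was not tested.

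The replicate numbers only name the pools. Deviations of same-numbered pools correlated at -0.14, 0.11 and -0.0059, not every pool correlated best with its own number, and the block called none of the 10 genes. With 3 pools per genotype, SEs ran from 0.10 (Zbtb46) to 0.25 (Batf3) on the log2 scale. A difference no larger than the SE of its own gene is not told apart from the spread between pools.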
